A study of Homo sapiens with 9 samples.

Results

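SUGP1-edited U-2 OS cells were compared with XCR1-edited U-2 OS cells, so that both sides of the comparison had received Cas9 and a guide that cuts the genome. U-2 OS is an established human osteosarcoma line. The comparison used 6 of the 9 libraries of the series, namely 3 from cells transfected with the crSUGP1 guide and 3 from cells transfected with the crXCR1 guide, chosen by their labels. Each of 3 independent experiments gave 1 library per guide, so the libraries form 3 pairs. The other 3 libraries, from cells that received a non-targeting guide (NTC), entered the fit as a group of their own, and their values are given beside those of the pair where a gene also differed between the controls. All groups shared the transfection with Cas9 and a guide RNA. The libraries came from pools of edited cells, not clones, so less RNA per cell and fewer cells with the RNA cannot be told apart.

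SUGP1 is a nuclear G-patch protein that works with the spliceosome at the branch point. There it binds SF3B1, the U2 snRNP subunit that holds the branch point region, and recruits a DEAH-box helicase. Cancer mutations in SF3B1 weaken this contact, and cells with them use cryptic 3′ splice sites a short way upstream of the normal ones, which can send a transcript to nonsense-mediated decay. XCR1 encodes a chemokine receptor of dendritic cells, and the guide against it is the study's control for the break itself.

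The crSUGP1 guide is shown because it defines the edited cells. Its target site with the PAM in capitals, between 25 flanking bases on each side, reads as follows (GRCh38, chromosome 19, plus strand).
Upstream flank: gaactcctccagcttctgtcggtag
crSUGP1 site: tacttgtacccttggctattGGG
Downstream flank: ctcatacagaaagctgcaaaggaga
The site spans chr19:19297309-19297328 and occurs once on the chromosome next to that PAM. It lies in exon 8 of 14 of SUGP1 (transcript ENST00000247001.10, minus strand), and the cut is placed after position 19297325, behind 906 of 1935 coding bases, directly before codon 303 of 645.

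Levels are given in CPM, read pair counts scaled to the size of each library after TMM adjustment. SUGP1 was at 31.6, 29.004 and 28.2 CPM in the crXCR1 libraries of experiments 1, 2 and 3 and at 7.88, 7.69 and 6.52 CPM in the crSUGP1 libraries. The groups did not overlap, as the labels require, and SUGP1 mRNA fell by 75.2% (log2 fold change -2.01, standard error 0.06, edgeR adjusted p = 1.95e-11). XCR1 had 13, 13 and 14 counts in the crXCR1 libraries and 0 in each crSUGP1 library. In the NTC libraries it had 0, 0 and 1 counts, so crXCR1 was the group that stood apart. The 0.149 CPM of the crXCR1 group lay at least 12.2-fold higher than the 0.0122 CPM that 3 counts over the crSUGP1 group would give, a limit for counting error only. The gene lay below the expression minimum and was not tested.

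The 9 libraries held 68712738 to 107952835 counts, and mitochondrial transcripts took 4.03% to 5.01% of them. In both edited groups experiment 3 lay farther from the other 2 experiments than these from each other. Libraries of 1 experiment also deviated together from their group means, so fold changes come from a fit that blocks on experiment. Of 9 tested markers of the osteoblast lineage 0 were called, beside 3.9% of all genes tested. COL1A1 and SPARC, matrix proteins of bone, were at 785 and 896 CPM in crXCR1 and ALPL at 10.9 CPM. Of the 12 markers listed, SP7, COL1A2 and IBSP were not among the genes tested. Of 10 tested markers of dendritic, other blood, endothelial, epithelial and melanocytic cells, out of 18 listed, 0 were called, with a median log2 fold change of -0.18. At a share of 3.9%, counts of 0 in lists this short say little.

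Editing of SUGP1 went with a transcriptome that differed in many genes, more of them lower than higher. Of 21071 genes tested, 821 (3.9%) were called, which took an edgeR adjusted p no higher than 0.05 together with a log2 fold change of 0.5 or more in size. In crSUGP1, 189 were higher (0.897% of genes tested) and 632 lower (3.0%). Without the block the counts were 163 in all (0.774%), 40 higher and 123 lower, and 162 of these were called in the same direction with the block. The typical called difference was small, with a median absolute log2 fold change of 0.657, and 124 genes differed by 1 or more (37 higher, 87 lower). In 587 of the 821 genes the 3 crSUGP1 libraries lay wholly above or below the 3 crXCR1 libraries, against 24.4% of all genes tested. By comparison, 1 gene, XIRP1, was called between crXCR1 and NTC in the same fit. Of the called-lower genes, 97 of 632 (15.3%) overlapped another called-lower gene in the genome, against 1.71% of all genes tested, and such neighbours may share reads, since whether counting used strand is not given.

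Each experiment could be held against the other 2, first by sign alone. Over all genes tested 49.1% lay above 0 in the main fit. Of 575 genes called lower from experiments 2 and 3 alone, 552 (96.0%) were lower in the pair of experiment 1, and of 175 called higher 164 were higher. The held-out pair of experiment 2 was lower in 509 of 523 genes and higher in 162 of 169. For experiment 3 the numbers were 448 of 480 and 139 of 146. Fewer also passed a log2 ratio of 0.5 in the held-out pair. For experiments 1, 2 and 3 these were 239, 312 and 262 of the lower genes and 91, 104 and 93 of the higher ones. The medians of the lower genes were -0.68, -0.66 and -0.67 in the fits and -0.44, -0.58 and -0.54 in the held-out pairs.

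**Figure D1:**
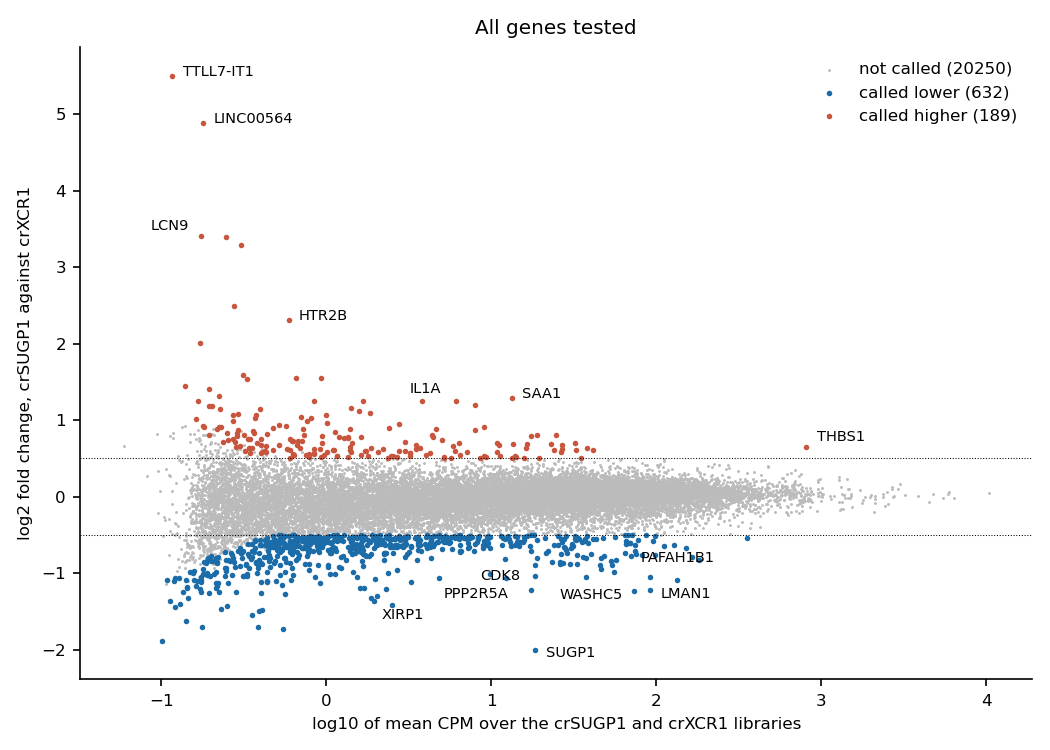
Log2 fold change of crSUGP1 against crXCR1 (vertical axis, from the fit with the block) by log10 of the mean CPM over the 6 libraries (horizontal axis), 1 point per gene tested, with dotted lines at a log2 fold change of -0.5 and 0.5. Above 1 CPM SUGP1 is the lowest point at -2.01, WASHC5, LMAN1 and PPP2R5A lie near -1.2, THBS1 is the most abundant labelled gene among those called higher, and a few genes below 1 CPM, TTLL7-IT1 first, lie above 2.

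Among well-expressed genes the largest falls after SUGP1 were those of WASHC5, LMAN1 and PPP2R5A. They are single genes of the WASH complex, the early secretory pathway and protein phosphatase 2A. WASHC5, the strumpellin subunit of the WASH complex that drives actin assembly on endosomes, was at 105, 106 and 99.6 CPM in crXCR1 and at 43.1, 45.7 and 43.4 CPM in crSUGP1. That is a fall of 57.4% (log2 fold change -1.23, standard error 0.05, adjusted p = 3.23e-10 from edgeR), and the groups were far apart. LMAN1, the lectin that carries clotting factors and other glycoproteins from the ER to the Golgi, went from 133, 134 and 119 CPM to 55.8, 57.0 and 53.6 CPM (log2 fold change -1.21, standard error 0.05, adjusted p = 2.6e-10 from edgeR). PPP2R5A, a regulatory B56 subunit that directs protein phosphatase 2A to its substrates, went from 24.1, 24.6 and 24.97 CPM to 9.71, 11.4 and 10.5 CPM (log2 fold change -1.22). In these 3 genes the fall was seen in every pair and the spread within a group was small beside it.

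DYNC2I2, an intermediate chain of the dynein-2 motor of cilia, fell by 52.99% from 182 ± 12.1 CPM (SD, n = 3) in crXCR1. RDX, or radixin, which links actin to the plasma membrane, fell by 51.6%. RECQL, a DNA helicase, was at 73.9 ± 2.08 CPM in crXCR1 and 37.5 ± 1.14 CPM in crSUGP1 (SD, n = 3), and TAF2, a subunit of the general transcription factor TFIID, fell by 46.4%. The 3 crSUGP1 libraries lay below the 3 crXCR1 libraries in each of these genes. WASHC5 overlaps NSMCE2 and WASHC5-AS1 on the other strand, RECQL overlaps PYROXD1, and DYNC2I2 shares 10 bases with SPTAN1. The counts of WASHC5-AS1 itself were lower by 1.11 on the log2 scale, and reads of WASHC5 and of this antisense RNA cannot be told apart.

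**Figure D2:**
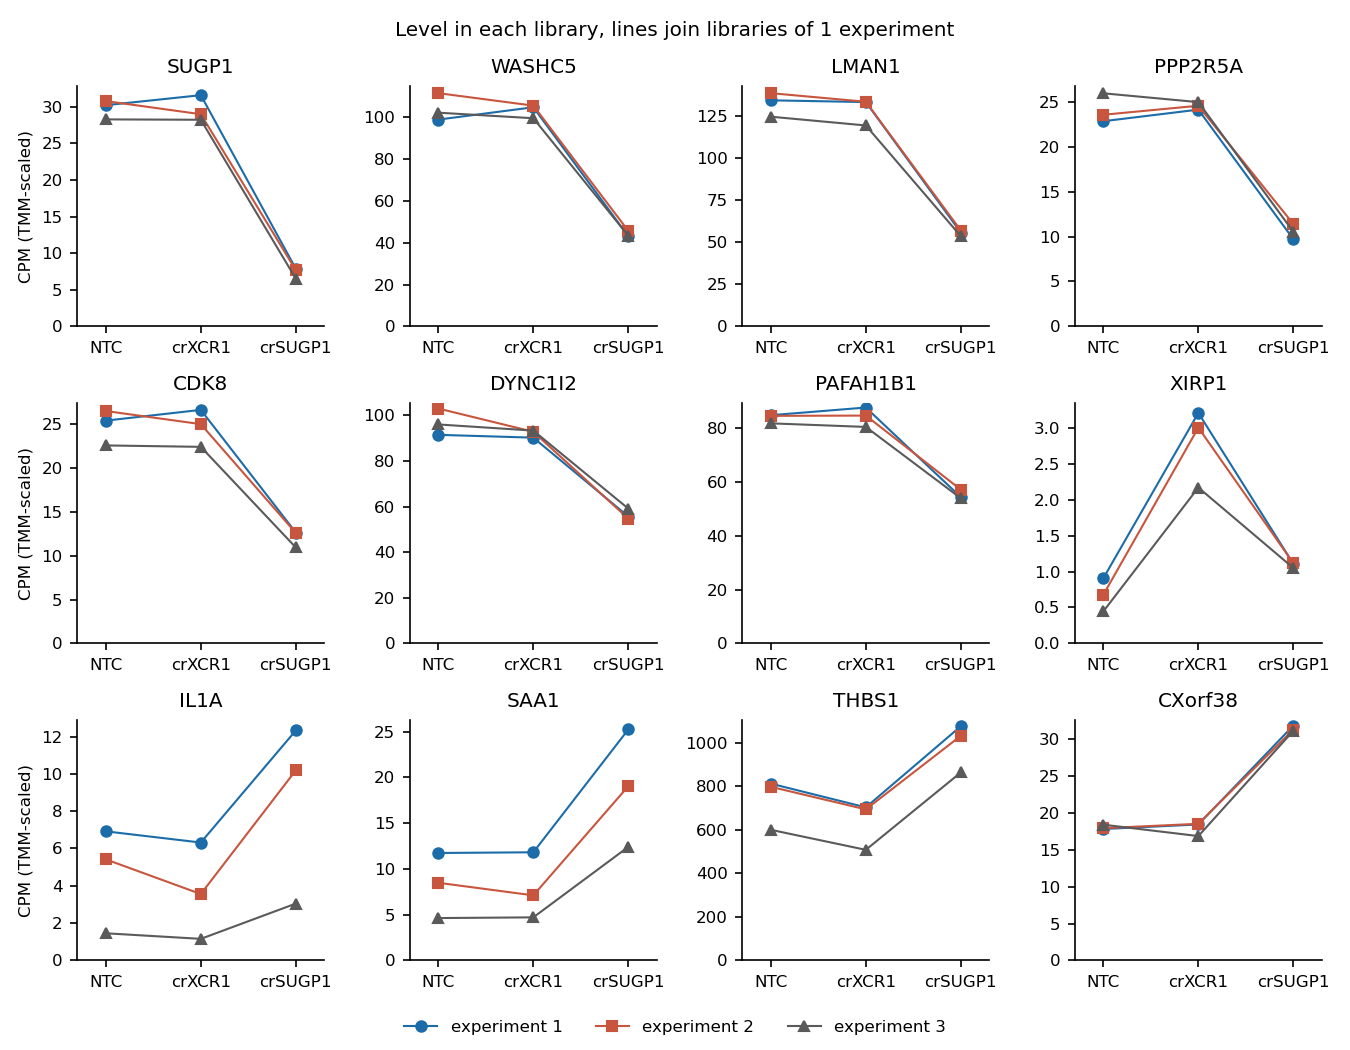
CPM (vertical axis, starting at 0) of 12 genes in the NTC, crXCR1 and crSUGP1 libraries (horizontal axis), 1 point per library, with lines that join the 3 libraries of an experiment. The first 7 genes lie lower in crSUGP1 than in either control with little spread, XIRP1 is high in crXCR1 alone, and IL1A and SAA1 rise in each experiment from starting levels that differ between experiments.

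Further genes with large falls were less abundant. ASB9, a substrate receptor of a ubiquitin ligase, was at 2.98, 2.95 and 2.80 CPM in crXCR1 and 1.21, 1.26 and 1.06 CPM in crSUGP1 (log2 fold change -1.30). The noncoding RNAs AC129510.1 (-1.32), AC119673.2 (-1.08) and LINC01638 (-1.06) were lower as well, and the last was not called without the block. So were SBK2, a kinase gene (-1.41), ATOH8, a basic helix-loop-helix factor (-1.21), and NOX4, an NADPH oxidase (-1.196), and these 3 were also lost without the block (adjusted p = 0.0526, 0.139 and 0.127 from edgeR).

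Several falls came in members of the same complex, while the other members of each complex stayed near 0. In the WASH complex, with 6 genes tested, the large scaffold subunit WASHC4 (-0.52) was called lower beside WASHC5, and the other 4 lay between -0.02 and 0.11. Of 7 genes of the Mediator kinase module, the part of Mediator that phosphorylates transcription factors, CDK8 and its cyclin CCNC were lower. CDK8 went from 26.6, 25.01 and 22.4 CPM to 12.6, 12.6 and 10.9 CPM, a log2 fold change of -1.03 (standard error 0.05, adjusted p = 1.1e-08 from edgeR). CCNC stood at 45.7 ± 4.84 CPM in crXCR1 and 26.5 ± 1.75 CPM in crSUGP1 (SD, n = 3), and CDK19, the paralog of CDK8, had a log2 fold change of -0.05. Of 8 augmin genes, whose complex nucleates microtubules inside the spindle, HAUS4 (-0.88) and HAUS7 (-0.54) were lower. The 2 called of 6 genes, 2 of 7 and 2 of 8 compare with 3.9% over all genes tested, and all 6 genes were called without the block too. WASHC4 and HAUS7 lie near the fold threshold, and the first was not called without experiment 1 (-0.46) nor the other with a correction for GC content (-0.49). These lists were written with earlier results on the same libraries known, so their counts are not independent evidence.

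Other lists had a single called member, a share that in most of them is near the 3.9% of all genes tested. ACD, the TPP1 subunit of telomere-binding shelterin, went from 53.4, 49.5 and 48.5 CPM to 27.7, 26.1 and 19.6 CPM (log2 fold change -1.05), and the other 7 of 8 listed genes of shelterin and of the ATRX-DAXX chaperone lay above 0. Among 27 genes for COPII coats and for receptors of ER-Golgi cargo, LMAN1 was the called one. There, 24 of 27 had values above 0, with a median log2 fold change of 0.12, and MCFD2, which binds LMAN1 in its cargo complex, was at 0.25. PPP2R5A was likewise the called member among 17 subunits of protein phosphatase 2A. KIF20A, a kinesin of late mitosis, fell by 40.5% as 1 of 32 mitotic genes, and LIG3, the DNA ligase of mitochondria and single-strand break repair, fell by 40.3% as 1 of 25 genes of double-strand break repair. ACD, CCNC, KIF20A, LIG3, HAUS4 and WASHC4 overlap genes on the other strand.

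Among dynein genes, PAFAH1B1 and DYNC1I2 were lower. PAFAH1B1 encodes LIS1, which helps dynein take up its open, active form, and lies at chr17:2593210-2685615 on the plus strand. Its mRNA was at 87.5, 84.6 and 80.3 CPM in crXCR1 and at 54.3, 57.1 and 53.9 CPM in crSUGP1. The groups did not overlap, and the fall was 34.5% (log2 fold change -0.61, standard error 0.05, adjusted p = 3.66e-07 from edgeR). DYNC1I2, the intermediate chain through which dynein-1 meets dynactin, went from 90.3, 92.8 and 93.4 CPM to 55.7, 54.7 and 59.1 CPM (log2 fold change -0.71). The pairs gave -0.69, -0.57 and -0.58 for PAFAH1B1 and -0.70, -0.76 and -0.66 for DYNC1I2, a spread far smaller than the fall itself. Of the 10 dynein-1 genes tested, DYNC1I2 was the called one, with DYNC1H1, the heavy chain, at -0.14 and the light intermediate chain DYNC1LI1 at 0.30. DYNC1LI1 lies on chromosome 3p beyond XCR1, and its log2 fold change was 0.12 against NTC. Of 12 dynactin genes 0 were called, and of 22 dynein regulators and adaptors PAFAH1B1 was called (4.55%, beside 3.9% of all genes tested). NDE1 and NDEL1, partners of LIS1, had log2 fold changes of 0.09 and 0.14. A noncoding gene, AC005696.2, at 2.41 CPM overlaps PAFAH1B1 on the other strand.

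Transcripts known from SF3B1-mutant cells for their cryptic 3′ splice sites included several of the called-lower genes, on a list written with earlier results known. Of 20 such genes, 5 (25%) were lower and 0 higher, beside 3.0% lower of all genes tested, and the median log2 fold change of the 20 was -0.07. The same 5 members were called without the block. Besides PPP2R5A they included TTI1, a cofactor of PI3K-like kinases, DPH5, an enzyme of diphthamide synthesis, and MAP3K7, or TAK1, a kinase of inflammatory signalling. TTI1 went from 71.3, 71.4 and 62.3 CPM to 38.03, 39.4 and 36.9 CPM, a fall of 44.1% in which the groups lay far apart. DPH5 by 38.9% and MAP3K7 by 36.1%. PPOX, an enzyme of haem synthesis, was at -0.36 and BRD9, a chromatin reader, at -0.30, both with an adjusted p below the limit from edgeR and short of the fold threshold. Other members were flat, among them DVL2 (-0.03), TMEM14C (0.13) and ENOSF1 (0.10). Whether these transcripts were spliced differently was not tested, since counts per gene do not hold splice junctions.

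The genes of the splicing machinery itself were not called. Of 29 branch point and U2 factors 0 passed both thresholds, beside 3.9% of all genes tested, with a median log2 fold change of 0.06. By the adjusted p alone 7 of the 29 were higher and 1 lower, beside 2105 and 2472 of 21071 genes tested. SF3B1 was at 0.07 and DHX15, the helicase that SUGP1 recruits, at 0.17, while SUGP2, the paralog of SUGP1 on the same chromosome arm, was at -0.22. Of 16 nonsense-mediated decay factors and 19 snoRNA host genes, whose spliced RNAs are degraded by that pathway, 0 were called, with medians of 0.07 and 0.05. By the adjusted p alone 1 decay factor was higher and 2 were lower, and 2 host genes were higher and 1 lower. Beside a share of 3.9%, a count of 0 in lists this short says little about these genes.

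Among genes at 1 CPM or more, SAA1 had the largest rise. SAA1, an acute-phase apolipoprotein, was at 11.8, 7.10 and 4.70 CPM in crXCR1 and at 25.2, 19.03 and 12.4 CPM in crSUGP1. The level differed between experiments in both groups, and the rise within each experiment was alike, with pair values of 1.09, 1.42 and 1.39 (log2 fold change 1.29, standard error 0.08, adjusted p = 3.25e-08 from edgeR, and 0.177 without the block). Reads may be shared between SAA1 and its near-identical copy SAA2, which was also called higher (1.25). KRT6A, a keratin of stressed epithelia, had a log2 fold change of 1.11, SERPINB5, or maspin, 0.84, ESM1, an endothelial proteoglycan, 0.80, and NOSTRIN, which binds nitric oxide synthase, 0.90. Noncoding RNAs among the largest rises were OSMR-AS1 (1.25), LINC01138 (1.20), AL512306.2 (1.09) and LINC00602 (0.96). CXorf38 varied little within groups, with 18.4, 18.5 and 16.9 CPM in crXCR1 and 31.8, 31.3 and 31.1 CPM in crSUGP1 (log2 fold change 0.81, adjusted p = 1.01e-07 from edgeR). EXOC3L2, related to an exocyst subunit, rose by 0.91 on the log2 scale. THBS1, or thrombospondin-1, a secreted matrix protein, was the 1 gene of 50 CPM or more called higher with groups that do not overlap, at 703, 694 and 508 CPM in crXCR1 and 1076, 1032 and 864 CPM in crSUGP1 (log2 fold change 0.65). In NTC it was at 812, 797 and 600 CPM, in each experiment between the levels of the edited groups. FSIP1, which overlaps THBS1 on the other strand, was called higher as well (0.61). Of these genes, SAA1, KRT6A, SERPINB5, ESM1, LINC00602 and THBS1 were called with the block alone.

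Of 19 tested targets of NF-kB, the transcription factor of inflammatory signalling, 4 rose (21.1%, beside 0.897% higher of all genes tested) and 0 fell. They were IL1A and IL1B, the interleukin-1 cytokines, CCL20, a chemokine for dendritic cells and lymphocytes, and IRAK2, a kinase of the interleukin-1 receptor. IL1A was at 6.32, 3.56 and 1.16 CPM in crXCR1 and at 12.3, 10.2 and 3.05 CPM in crSUGP1. The groups overlap, as both libraries of experiment 3 were low, and within each experiment the crSUGP1 library was the higher one (log2 fold change 1.25, standard error 0.10, adjusted p = 7.32e-07 from edgeR, and 0.433 without the block). CCL20 was at 2.47, 1.74 and 1.43 CPM and then 4.37, 3.21 and 3.25 CPM, and was not called without the block either (adjusted p = 0.172 from edgeR). IL1B lay at 0.112 to 0.350 CPM in crXCR1 and its call was lost without experiment 1 or 2. IRAK2 was called in both fits, but it lies on chromosome 3p beyond XCR1, where genes were lower in crXCR1 than in NTC, and against NTC its log2 fold change was 0.18. So 1 of 19 members was called without the block. Over all 19 members the median was 0.20, with NFKBIA, the inhibitor of NF-kB, at 0.11 and TNFAIP3, its feedback deubiquitinase, at 0.39. Against NTC the median of the list was 0.13 for crSUGP1 and -0.07 for crXCR1. Values against NTC lay above 0 in 15 of 19 members for crSUGP1 and in 1 of 19 for crXCR1. These comparisons share their controls. MIR3142HG, the host RNA of the NF-kB-induced miR-146a, is not on that list and rose from 4.34, 2.60 and 2.81 CPM to 7.42, 5.41 and 5.09 CPM (log2 fold change 0.89, called with the block alone).

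Promoter sequence is shown for 2 of these risen genes and, for contrast, for 2 NF-kB targets that were not called, since some genes of either kind hold the motif. The windows are 30 bases of RefSeq promoters (GRCh38.p14), each on the strand of its gene, with a match to a kappaB motif (GGG, any 2 bases, then TTTCC, read on either strand) in capitals.
CCL20, chr2:227813753-227813782: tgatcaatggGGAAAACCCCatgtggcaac
MIR3142HG, chr5:160468121-160468150: ggatctagaaGGGACTTTCCagagagggtt
IL6, chr7:22727117-22727146: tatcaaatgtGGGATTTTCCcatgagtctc
NFKBIA, chr14:35404811-35404840, minus strand: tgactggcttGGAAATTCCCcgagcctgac
The match starts 79 bases before the start site in CCL20, 120 in MIR3142HG, 73 in IL6 and 81 in NFKBIA. IL6 had a log2 fold change of 0.27. Of 16 listed targets with a promoter entry 8 hold the motif, against 635 of 27305 genes (2.33%) with an entry, and 1 of the 8, CCL20, was called. The other called members of the list, IL1A, IL1B and IRAK2, have an entry without a match. The letters of the motif were chosen after matches had been seen.

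Lists of stress genes had medians above 0, with few members past both thresholds and many higher by the adjusted p alone. Of 37 targets of p53, the factor that answers DNA breaks, 33 had values above 0, with a median log2 fold change of 0.24 against -0.0042 over all genes tested, and 1 (2.7%, beside 0.897% higher of all genes tested) was called. This was PURPL, a noncoding RNA induced by p53, at 29.6, 28.7 and 28.5 CPM in crXCR1 and 40.5, 39.9 and 42.9 CPM in crSUGP1 (log2 fold change 0.51). The call of PURPL lies at the edge of the fold threshold and was lost in 8 of the alternatives with the block, in 7 of them at log2 fold changes of 0.46 to 0.499 and in the other by testing against the fold threshold itself. CDKN1A, the cell cycle inhibitor p21, was at 0.24, MDM2, the ligase that degrades p53, at 0.29, and FAS, a death receptor, at 0.43. By the adjusted p alone 25 of the 37 were higher and 0 lower, beside 2105 and 2472 of 21071 genes tested. The median of the list was 0.32 for crSUGP1 against NTC and 0.17 for crXCR1 against NTC. These comparisons share their controls.

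Among 32 targets of ATF4, the factor of the integrated stress response, 30 had values above 0, with a median of 0.22. Of the 32, 3 were higher and 1 lower, beside 0.897% higher and 3.0% lower of all genes tested. By the adjusted p alone 22 were higher and 2 lower, beside 2105 and 2472 of 21071 genes tested. CHAC1, which degrades glutathione (0.70), SLC7A11, the cystine importer (0.64), and STC2, a secreted glycoprotein (0.55), were called higher with the block and none of them without it. SLC7A11 was at 33.4, 32.8 and 22.8 CPM in crXCR1 and at 50.0, 53.2 and 35.6 CPM in crSUGP1, so that each pair rose while experiment 3 stayed low. ASNS, the asparagine synthetase, was at 0.49 and PSAT1, an enzyme of serine synthesis, at 0.48, just under the threshold. PHGDH, which catalyses the step before PSAT1, went the other way, from 185, 185 and 190 CPM to 119, 120 and 110 CPM (log2 fold change -0.68, called in both fits). The unfolded protein response, the programme of ER stress, had 18 of 21 members above 0 and a median of 0.15, which was 0.06 against NTC, with 4 of 21 members above 0 in crXCR1 against NTC. By the adjusted p alone 10 of these 21 were higher and 1 lower. The called member was DNAJC3, an ER chaperone that restrains the kinase PERK, and it fell by 33.6%. The chaperone HSPA5 was at 0.04 and XBP1 at 0.28.

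The largest rises of all lay in genes that were close to silent in both controls. Of called genes with a log2 fold change of 2 or more in size, 8 rose and 1, SUGP1, fell. All 8 lie below 1 CPM, and they were picked for naming with their values in view. TTLL7-IT1, a noncoding RNA inside an intron of TTLL7, had 0, 0 and 1 counts in crXCR1, 0, 1 and 0 in NTC, and 18, 20 and 18 in crSUGP1. The ratio of the summed counts, scaled for depth, was 61.2 (95% exact interval 10.5 to 2460, for counting error alone). LINC00564 went from 1, 0 and 2 counts to 23, 20 and 39, a ratio of 29.9 (exact interval 9.87 to 148). LCN9, a lipocalin, went from 2, 4 and 2 counts to 27, 17 and 32, AC009152.1 from 4, 5 and 2 to 44, 34 and 32, and AL158196.1 from 4, 4 and 7 to 52, 47 and 38. LINC00315 and AC007342.4 rose 5.51-fold and 4.07-fold in summed counts.

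HTR2B, a serotonin receptor, was the most abundant of the 8, with 16, 11 and 27 counts in crXCR1 and 96, 83 and 66 in crSUGP1 (log2 fold change 2.31, standard error 0.18, adjusted p = 6.63e-07 from edgeR). The 8 were chosen for the size of their rise, and with crXCR1 this low most of them passed the expression minimum through the crSUGP1 libraries, so the separation of the groups is part of the choice. DESeq2 gave none of the 8 an adjusted p. TTLL7, a tubulin polyglutamylase at chr1:83865024-83999150, was at 3.35, 3.73 and 3.65 CPM in crXCR1 and 2.0004, 2.01 and 2.82 CPM in crSUGP1, so the host gene moved against the transcript in its intron (log2 fold change -0.66, adjusted p = 0.0598 from edgeR without the block). HTR2B lies inside PSMD1, a proteasome subunit on the other strand, which was at -0.48 and not called. Such opposite pairs were rare: 2 of 189 called-higher genes (1.06%) overlap a called-lower gene, beside 1.71% of all genes tested.

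Genes of muscle were called lower at low levels. Of 19 tested genes of striated muscle, 5 (26.3%) were lower and 0 higher, beside 3.0% lower of all genes tested and 7.08% lower of protein-coding genes at 1 to 3 CPM. CSRP3, a LIM protein of the Z-disc, was at 0.548, 0.586 and 0.609 CPM in crXCR1 and 0.179, 0.211 and 0.227 CPM in crSUGP1. ANKRD2 (-0.99) and SYNPO2L (-0.93), also of the Z-disc, and the small heat shock protein HSPB2 (-0.75) were lower too. HSPB2 overlaps CRYAB, the related alpha-B-crystallin on the other strand, which had a log2 fold change of -0.45. XIRP1, an actin-binding protein of muscle, was the fifth, at 3.21, 3.00 and 2.17 CPM in crXCR1 and 1.11, 1.12 and 1.05 CPM in crSUGP1. In NTC it was at 0.676 CPM, so crXCR1 was the group that stood apart, by 2.04 on the log2 scale against NTC, and the gene lies on chromosome 3p beyond XCR1. The list had a median of -0.18 for crSUGP1 against crXCR1, -0.09 for crSUGP1 against NTC and 0.15 for crXCR1 against NTC. These comparisons share their controls. TNNT1, the most abundant member, was at -0.12 and NEB, the giant protein of the thin filament, at -0.09.

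Of 26 targets of SRF and YAP, which read out actin and tension, THBS1 and NR4A3, an orphan nuclear receptor (0.88), rose with the block alone and CNN1, the calponin of smooth muscle, fell. Over all genes tested 0.897% were higher and 3.0% lower. CNN1 went from 15.99, 14.3 and 19.96 CPM to 8.28, 7.48 and 8.18 CPM (log2 fold change -1.06), and it lies on chromosome 19p beyond the SUGP1 cut. CCN1 and CCN2, the classic targets of YAP, were at 0.06 and 0.10. MX1, an antiviral GTPase, was lower (-0.68, with the block alone) as 1 of 19 interferon-stimulated genes (5.26%, near the 3.9% called of all genes tested). Of 27 genes of cholesterol and fatty acid synthesis, 24 of S phase and 10 of retromer and sorting nexins 0 were called, which at that share says little. Among 240 zinc finger genes of chromosome 19, a family of repressors with shared sequence, 5 were higher and 1 lower (2.5%, beside 3.9% of all genes tested), with a median of 0.09. ZNF91, which silences SVA retrotransposons, rose from 2.75, 3.27 and 3.59 CPM to 5.82, 4.77 and 6.07 CPM, and ZNF548 rose by 0.79, ZFP30 and ZNF540 by 0.58 each and ZNF468 by 0.51 on the log2 scale. ZNF576 fell by 0.55. ZFP30 and ZNF540 overlap on opposite strands, and zinc finger genes with near-identical stretches may share reads.

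Position along the 2 cut chromosomes went with the level of many genes. On chromosome 19, 523 genes at 1 CPM or more lie between the SUGP1 cut and the end of the short arm. Their median log2 fold change was -0.19, and 94.8% of them had values below 0, whereas the median was 0.01 for the chromosome's 722 other genes, SUGP1 left out. The median was -0.15, -0.13 and -0.33 in pairs 1, 2 and 3. Against NTC it was -0.19 as well, and between crXCR1 and NTC it was 0.01. Of the 523 genes 41 were called lower (7.84%, beside 2.14% of all genes at 1 CPM or more) and 0 higher. CNN1 fell most of the 41. The most abundant of them was CIRBP, a cold-inducible RNA-binding protein (-0.58), which was picked for naming with its value in view.

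On chromosome 3 the sign was the opposite. The 224 genes between XCR1 and the end of the short arm had a median of 0.22, and 87.5% of them had values above 0, beside a median of 0.04 for the 668 other genes. Here the 2 controls differed: the median was 0.03 for crSUGP1 against NTC and -0.19 for crXCR1 against NTC. Both shifts ended at the cut gene. In the 2.5 Mb before the SUGP1 cut the median of 77 genes was -0.19, and in the 2.5 Mb after it the median of 22 genes was 0.01. In the 5 Mb on either side of XCR1 the medians were 0.19 for the 46 genes before it and 0.01 for those after it. With the 895 tested genes beyond both cuts left out, 753 genes were called, 184 higher and 569 lower. Whether the arms were lost in some cells was not tested.

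**Figure D3:**
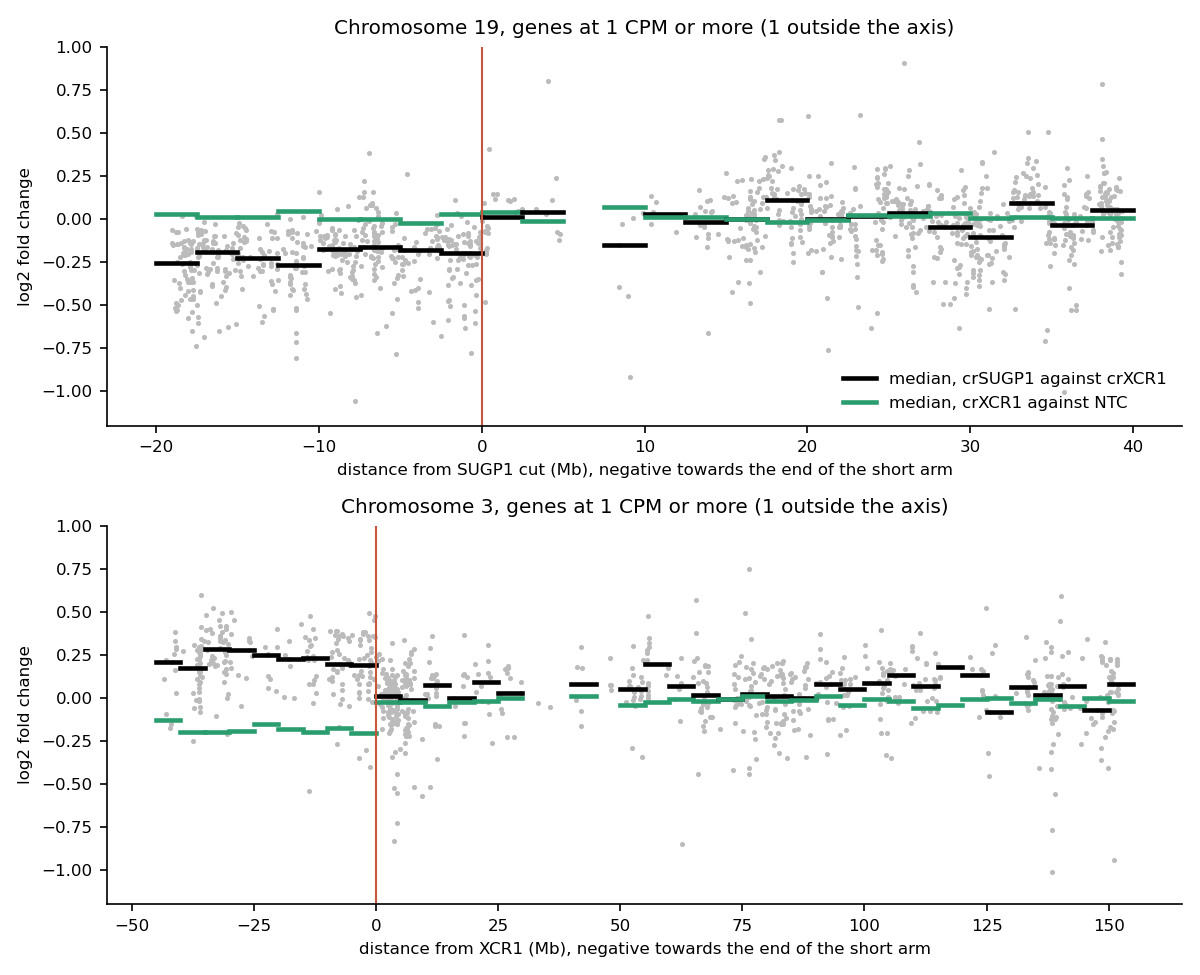
Log2 fold change (vertical axis) by distance in Mb (horizontal axis) from the SUGP1 cut on chromosome 19 and from XCR1 on chromosome 3, 1 grey point per gene at 1 CPM or more for crSUGP1 against crXCR1, with medians of bins of 2.5 Mb and 5 Mb as bars. Towards the end of the short arm the black medians lie near -0.2 on chromosome 19 and near 0.2 on chromosome 3, where the green medians of crXCR1 against NTC lie near -0.2.

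Called-lower genes had features of their own. Among protein-coding genes at 30 CPM or more, 57 were called lower, with a median of 17 exons, against 10 exons in the 6769 genes not called. Of the 57, 36.8% had 20 exons or more, against 18.3% of those not called. The quartiles of the 57 were 10 and 22 exons. WASHC5 has 29 exons, WASHC4 33, TAF2 26 and LIG3 20 in the annotation used (GENCODE v44), all above the median. CIRBP, also called lower at this level, has 6. Between 1 and 10 CPM the median was 8 exons for 161 called-lower genes and 7 for those not called. GC content also differed, since called-lower protein-coding genes at 1 CPM or more had a median of 57.2% in their transcripts and uncalled ones 48.8%.

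The GC trend was steepest in experiment 3. From the lowest to the highest of 5 equal bins of GC content, the median log2 ratio of crSUGP1 over crXCR1 ran from 0.01 to -0.02 in pair 1, from 0.03 to -0.02 in pair 2 and from 0.17 to -0.22 in pair 3. With the GC trend of each library removed, a correction added after the trend was seen, 775 genes were called (187 higher, 588 lower), of which 680 were among the 821. The 127 called-lower protein-coding genes at 1 to 10 CPM then still had a median GC content of 53.2%, against 48.1% of uncalled ones. The 50 called-lower genes at 30 CPM or more then had a median of 18 exons and a GC content of 44.04%. The abundant called-lower genes thus had more exons with and without the correction, while their GC content turned from higher to lower than the 49.9% of uncalled genes. Of 5255 lncRNAs tested 222 were called lower and 75 higher, and of 15474 protein-coding genes 400 and 112. Call rates also went with level, since 7.08% of protein-coding genes at 1 to 3 CPM and 0.316% over 100 CPM were called lower, and the classes were not matched for level.

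**Figure D4:**
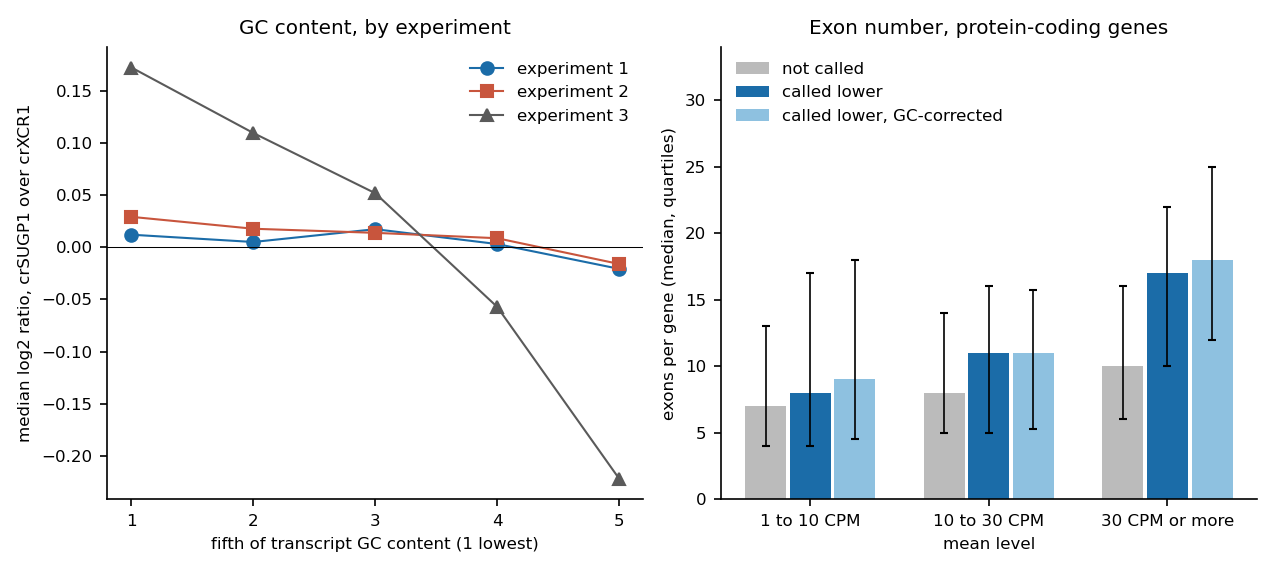
Left, median log2 ratio of crSUGP1 over crXCR1 (vertical axis) in 5 bins of genes by transcript GC content (horizontal axis), 1 line per experiment. Right, median exons per protein-coding gene (bars, with quartiles) by mean level for genes not called, called lower, and called lower after the GC correction. Experiment 3 alone falls steeply with GC content, and the called-lower genes at 30 CPM or more have 17 exons, or 18 after the correction, against 10.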

How the data were processed

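Poly(A) RNA of 9 U-2 OS libraries was sequenced as read pairs. After trimming and alignment to GRCh38 with STAR, the authors counted the read pairs on each gene's exons in SeqMonk and deposited these raw counts with no normalization. The submitters' processing notes name R 4.1.0, DESeq2 1.32.0, STAR 2.7.9a, cutadapt 2.4, Trim Galore 0.6.7 and FastQC 0.11.5. The strand used in counting is not given in the sources used here, and the time from transfection to harvest is given only for the screen in plates.

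From the deposited counts (38179 entries; 2 identical repeats and 31 repeats at 0 were dropped), 21071 genes passed a minimum of -2 in log2 CPM in 1 or more libraries and were tested in R 4.3.3 with edgeR 4.0.16 (the package data.table, version 1.17.8, and limma 3.58.1 were loaded). The quasi-likelihood fit took all 9 TMM-scaled libraries, with guide and experiment as terms (4 residual degrees of freedom, or 6 without the experiment). A call took a Benjamini-Hochberg adjusted p no higher than 0.05 with a log2 fold change of 0.5 or more in size. The study's methods give DESeq2 at default settings and name no term for the experiment. The term was used here because same-numbered libraries share an experiment and deviated together from their group means, with correlations of 0.483 to 0.893 over 9 pairs and 16793 genes, against -0.843 to 0.642 over 18 pairs with different numbers. P-values of the fit with the block measure how far differences between guides varied over these 3 experiments, with the NTC libraries included. They leave out shifts that all libraries of an experiment share.

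Lists were described by counts and medians, with no set test. Named genes were the 5 the study names, the 14 that rose and 14 that fell most at a mean of 1 CPM or more with groups that do not overlap, the 6 in each direction at 50 CPM or more, and up to 5 called members of each list. The members and lists were chosen with earlier results of these data known. Gene features came from GENCODE v44 (21002 of 21071 genes matched on Ensembl ID), and promoters from RefSeq. Alternatives were DESeq2 1.42.0, other scaling, filters and thresholds, fits without the block or to 6 libraries, and fits without each library or experiment. The GC correction (lowess, span 0.3) and the fits without both the block and an experiment were added after the data had been seen. On simulated counts with 20923 genes for crSUGP1 against crXCR1, the fit with the block called 70.1%, 93.9% and 98.5% of genes changed by 0.6, 1 and 2 on the log2 scale and 0.0241% of unchanged genes. Without the block it called 26.9%, 78.8% and 93.9%. These rates hold for the simulated counts, in which each difference between guides had a set size. In the real libraries the GC trend of crSUGP1 over crXCR1 differed between experiments. Whether the rates, that of unchanged genes included, carry over to the real libraries was not tested. Splice junctions and 3′ ends were not analysed here, and 1 named gene is not reported here.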

Additional observations from a re-analysis of the deposited data

How the results depend on the processing

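SUGP1 was called in each alternative that gave it an adjusted p, and the medians of the genes beyond the SUGP1 cut and beyond XCR1 kept their sign. The 821 genes called (189 higher, 632 lower) became 163 (40 and 123) with no replicate block, 473 (102 and 371) with DESeq2 and the block, 268 (63 and 205) with DESeq2 and no block, 4577 (2105 and 2472) by the adjusted p alone, and 91 (28 and 63) when edgeR tested against the fold threshold itself. Without 1 library the block fit called 605 to 860 genes (144 to 183 higher, 444 to 677 lower), and without a whole experiment 626 to 750. With the replicate block left out and a whole experiment left out, a fit chosen after seeing the data, 1 to 491 genes were called (0 to 116 higher, 1 to 375 lower), 1 without experiment 1, 2 without experiment 2 and 491 without experiment 3. The GC correction, also added later, gave 775 with the block and 184 without it (45 higher, 139 lower). Of 76 named genes, 56 stayed on the same side of the threshold with no replicate block and the other 20 kept their direction. The cause of these changes was not tested. Genes near 1 CPM or below have the fewest counts, and 3 experiments leave 4 residual degrees of freedom.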
